A study of Mus musculus with 6 samples.

Results

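Adipocyte and lipid storage genes were followed in libraries labelled as mouse uterus, with and without the transcription factor gene Tcf21. The set holds 34 genes of the 26018 in the deposited table, taken by gene symbol: adipocyte hormones, lipid droplet coat proteins, lipases, fatty acid uptake genes, enzymes that build triglyceride or fatty acids, and lipogenic transcription factors. They were chosen with the outcome of this comparison known, Pnpla3 being high in the knockout, so differences between the groups are given as a description, without a test, and the calls of the fit over all genes support nothing about these genes. The control group was 3 females labelled Tcf21f/f, and the conditional knockout (cKO) group was 3 females labelled Tcf21d/d. All 6 animals were 6 weeks old, matched for body weight between the groups and untreated, and each gave 1 library of total RNA from the uterus. The comparison was set up to look for genes downstream of TCF21 during uterine development, and both groups were handled at the same time. The sources used here do not name the Cre driver, and thus the cells in which the gene was deleted. All 34 genes passed the filter on low reads.

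Adipocytes store fatty acids as triglyceride in a lipid droplet. Fatty acids are taken up from lipoproteins or made from acetyl-CoA, joined to a glycerol backbone, held behind perilipin coat proteins and released again by lipases. White fat lies around the uterus and in the broad ligament, and many of these genes are also expressed in skeletal muscle, liver, macrophages or the endothelium of small vessels. PNPLA3 is a patatin-domain protein of the lipid droplet. Its gene is induced in liver and fat by feeding, through the transcription factors SREBP-1c and ChREBP, and it is a close relative of the adipose triglyceride lipase gene Pnpla2.

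Libraries held 14584450 to 16579573 reads on genes. Values below are normalised read counts, meaning reads divided by the authors' size factor for each library. Tcf21 measured 341.4, 151.9 and 144.1 in control replicates 1 to 3, and 26.0, 0 and 0 in cKO replicates 1 to 3, where 0 reads allow up to 2.93 in replicate 2 and 3.31 in replicate 3. The groups did not overlap, but the limma adjusted p over all genes was 0.0765, with a log2 fold change of -6.03 ± 1.25 (SE). Transcripts of other tissues were present. Markers of skeletal muscle took 4.54 ± 1.48% of control reads and 8.20 ± 1.46% of cKO reads (SD, n = 3 per group), with 1 of the 13 markers, Tnnc2, at 0 in control replicate 1. Of the 12 tested, limma called 0 and DESeq2 called 6 higher, beside 0.276% and 1.8% of all tested genes. Liver markers made up 1.85% of control replicate 1 but 0.0155 to 0.0372% elsewhere, and 7 of the 15 liver markers were at 0 in cKO replicate 1. Control replicate 1 also differed in mitochondrially encoded genes, which took 23.8% of its reads and 8.1 to 13.7% elsewhere. The part of either difference in the fits that leave this library out was not tested. Macrophage markers took 0.169 ± 0.0793% and 0.269 ± 0.0242%, and blood endothelial markers 0.101 ± 0.0213% and 0.115 ± 0.014%, with no marker of either list at 0. Of the labelled tissue, 8 uterine mesenchyme markers, Tcf21 among them, took 0.038 ± 0.0118% and 0.0118 ± 0.00357% of reads, and 10 epithelial markers 0.0261 ± 0.0268% and 0.00489 ± 0.00287%. Of the epithelial markers, 1 or 2 were at 0 in 4 of the 6 libraries. Of 10 smooth muscle markers, the myometrial list, limma called 7 lower in the cKO, where it called 0.889% of all tested genes lower. The ratio of cKO to control means was 0.0431 for Myh11, 0.0107 for Actg2 and 0.126 for Acta2. The list's share of reads, 1.26 ± 0.279% and 0.567 ± 0.0941%, includes Des, which skeletal muscle also expresses and whose ratio was 1.05. In every library the skeletal muscle markers took a larger share than the uterine mesenchyme, epithelial and smooth muscle lists. The values below thus describe the RNA of libraries labelled uterus, which was not of uterine cells alone, and the part of tissue collection in the results was not tested. In bulk tissue, fewer cells of a type and less RNA per cell cannot be told apart.

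Pnpla3 (ENSMUSG00000041653, chromosome 15, 84167837 to 84187236, plus strand, GRCm38) was the only one of the 34 genes whose difference between the groups passed the threshold of limma's test over all genes (Benjamini-Hochberg adjusted p under 0.05). Its value was 37.8, 83.6 and 32.0 in control replicates 1 to 3 and 276.0, 184.3 and 271.8 in cKO replicates 1 to 3. Every cKO library was above every control library, and the lowest cKO value was more than double the highest control value. The mean was 51.1 ± 28.2 (SD, n = 3) for controls and 244.0 ± 51.8 for the cKO, a ratio of 4.77 and a log2 fold change of 2.34 ± 0.40 (SE). These values rest on 31 to 297 reads per library. Over all 16314 genes tested, limma called 45 higher and 145 lower in the cKO, which is 0.276% and 0.889% (12 and 119 when libraries were scaled to their totals). With 1 of 34 members called higher and 0 lower, the background is printed here only for reference, because the choice of genes used this comparison. At an unadjusted p under 0.05 there were 4 members higher and 1 lower, where 6.11% of all tested genes were higher and 7.6% lower. EdgeR and DESeq2 each called 1 member higher and 0 lower, and limma-voom 0 in either direction. Over all genes edgeR called 0.19% higher and 0.736% lower, DESeq2 1.8% and 3.72%, and limma-voom 0.116% and 0.503%.

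The call for Pnpla3 depended on every cKO library. Without cKO replicate 1, 2 or 3 its log2 fold change was 2.24, 2.53 and 2.25, and it was no longer called. Calls fell for all genes in those fits, with 2, 3 and 1 genes called higher, beside 45 with all 6 libraries. Without control replicate 1, 2 or 3 the Pnpla3 value was 2.19, 2.75 and 2.07, and the call was kept. There 117, 82 and 58 genes were called higher. Exons of a neighbouring gene on the same strand, Gm49513, cover 6.8% of the 1548 exon bases of Pnpla3, and stretches of up to 120 bases match transcripts of 6 other genes at 95% identity or more, so reads in those stretches are uncertain.

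The 250 bases upstream of the RefSeq transcription start are shown for Pnpla3 and for Adipoq and Cidec, which contrast with it below. Each shown window was taken as the first of its gene that holds the letters CAGCTG. Retn and Plin1 contrast with Pnpla3 in the same way, but they lack these letters in this window and are not shown. TCF21 is a basic helix-loop-helix factor, a class that binds E-boxes, and capitals mark an E-box of the letters CAGCTG, which reads the same on both strands. The sequences are from RefSeq on GRCm38.p6, each given 5′ to 3′ on the strand of its gene. They lie at chr15:84167566-84167815 on the plus strand for Pnpla3, chr16:23146286-23146535 on the plus strand for Adipoq and chr6:113435761-113436010 on the minus strand for Cidec.
Pnpla3: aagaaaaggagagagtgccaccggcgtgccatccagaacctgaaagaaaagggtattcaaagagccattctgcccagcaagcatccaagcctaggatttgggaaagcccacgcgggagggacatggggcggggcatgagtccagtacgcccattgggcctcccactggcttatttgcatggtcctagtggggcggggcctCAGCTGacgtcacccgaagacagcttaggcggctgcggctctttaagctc
Adipoq: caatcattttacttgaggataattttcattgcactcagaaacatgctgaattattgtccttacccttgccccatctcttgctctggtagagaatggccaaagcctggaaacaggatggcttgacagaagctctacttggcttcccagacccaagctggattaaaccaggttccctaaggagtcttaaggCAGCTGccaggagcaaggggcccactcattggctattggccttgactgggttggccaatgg
Cidec: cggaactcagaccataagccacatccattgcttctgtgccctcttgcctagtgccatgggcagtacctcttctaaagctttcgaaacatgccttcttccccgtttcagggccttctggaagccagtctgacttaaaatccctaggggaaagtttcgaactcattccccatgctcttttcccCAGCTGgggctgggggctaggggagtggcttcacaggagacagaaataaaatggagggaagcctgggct
The E-box begins 50, 61 and 69 bases before the end of the window in Pnpla3, Adipoq and Cidec. Scd1, Cidea, Lpl, Fabp4, Dgat1, Gpd1, Angptl4 and Dgat2 were not matched in the promoter table. Of the 26 matched members, 5 (19.2%) hold CAGCTG in this window, the other 2 being Mlxipl and Plin2, against 14.7% of all 27025 genes there. The letters CACGTG, an E-box type bound by SREBP-1c and ChREBP, occur in 2 of the 26 members, Lipe and Mlxipl, and in 6.86% of all genes. The sterol response element TCACNCCAC, searched on both strands, occurs in 1 member, Mlxipl, and in 1.22% of all genes. A direct repeat bound by PPAR factors, 2 copies of AGGTCA parted by 1 base, occurs in 0 of the 26 members and in 0.0407% of all genes. These matches describe letters, not binding.

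The other lipases of the set overlapped between the groups. Pnpla2, the enzyme that takes the first fatty acid off triglyceride, was at 1739.9, 2657.5 and 1757.9 in control libraries, against 2495.8, 1954.2 and 2302.6 in cKO libraries. The groups overlapped, and the log2 fold change was 0.15 ± 0.20 (SE). Lipe, the hormone-sensitive lipase that acts on diglyceride, was at 477.9, 699.2 and 746.4 in control libraries, against 1065.8, 887.4 and 645.3 in cKO libraries, again overlapping. Its log2 fold change was 0.43 ± 0.24, and exons of the antisense gene 4732471J01Rik cover 15.6% of its own. Per kilobase of gene length, Pnpla3 stood at 33.03 ± 18.2 (SD, n = 3) normalised reads for controls and 157.6 ± 33.4 in cKO animals, and Pnpla2 at 679.4 ± 173.7 and 745.3 ± 90.9. Ranked by the group mean per kilobase among the 34 genes, Pnpla3 was at place 30 in controls and place 16 in cKO animals.

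Genes of the adipocyte hormones varied more between animals of 1 genotype than between the means of the genotypes. Adipoq, the gene of the fat hormone adiponectin, measured 89.0, 378.4 and 63.2 in control replicates 1 to 3, and 407.0, 122.9 and 138.1 in cKO replicates 1 to 3. Control replicate 2 and cKO replicate 1 were high and the other 4 libraries low, so that the highest control was 5.99 times the lowest. Retn, which encodes the hormone resistin, was highest in the same 2 libraries, with 61.0, 277.7 and 63.2 in control libraries, against 404.2, 144.3 and 113.8 in cKO libraries. Cfd, the gene of adipsin, a serine protease of the complement system made by fat, was at 1904.5, 4438.8 and 1430.5 in control libraries, against 9371.0, 2215.5 and 2218.7 in cKO libraries. Its value in cKO replicate 1 was 4.23 times the mean of the other 2 cKO libraries. Lep, the leptin gene, was near the detection limit at 2 to 31 reads a library, with 27.9 in control replicate 2, 25.1 in cKO replicate 1 and 2.0 to 9.8 elsewhere.

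**Figure D1:**
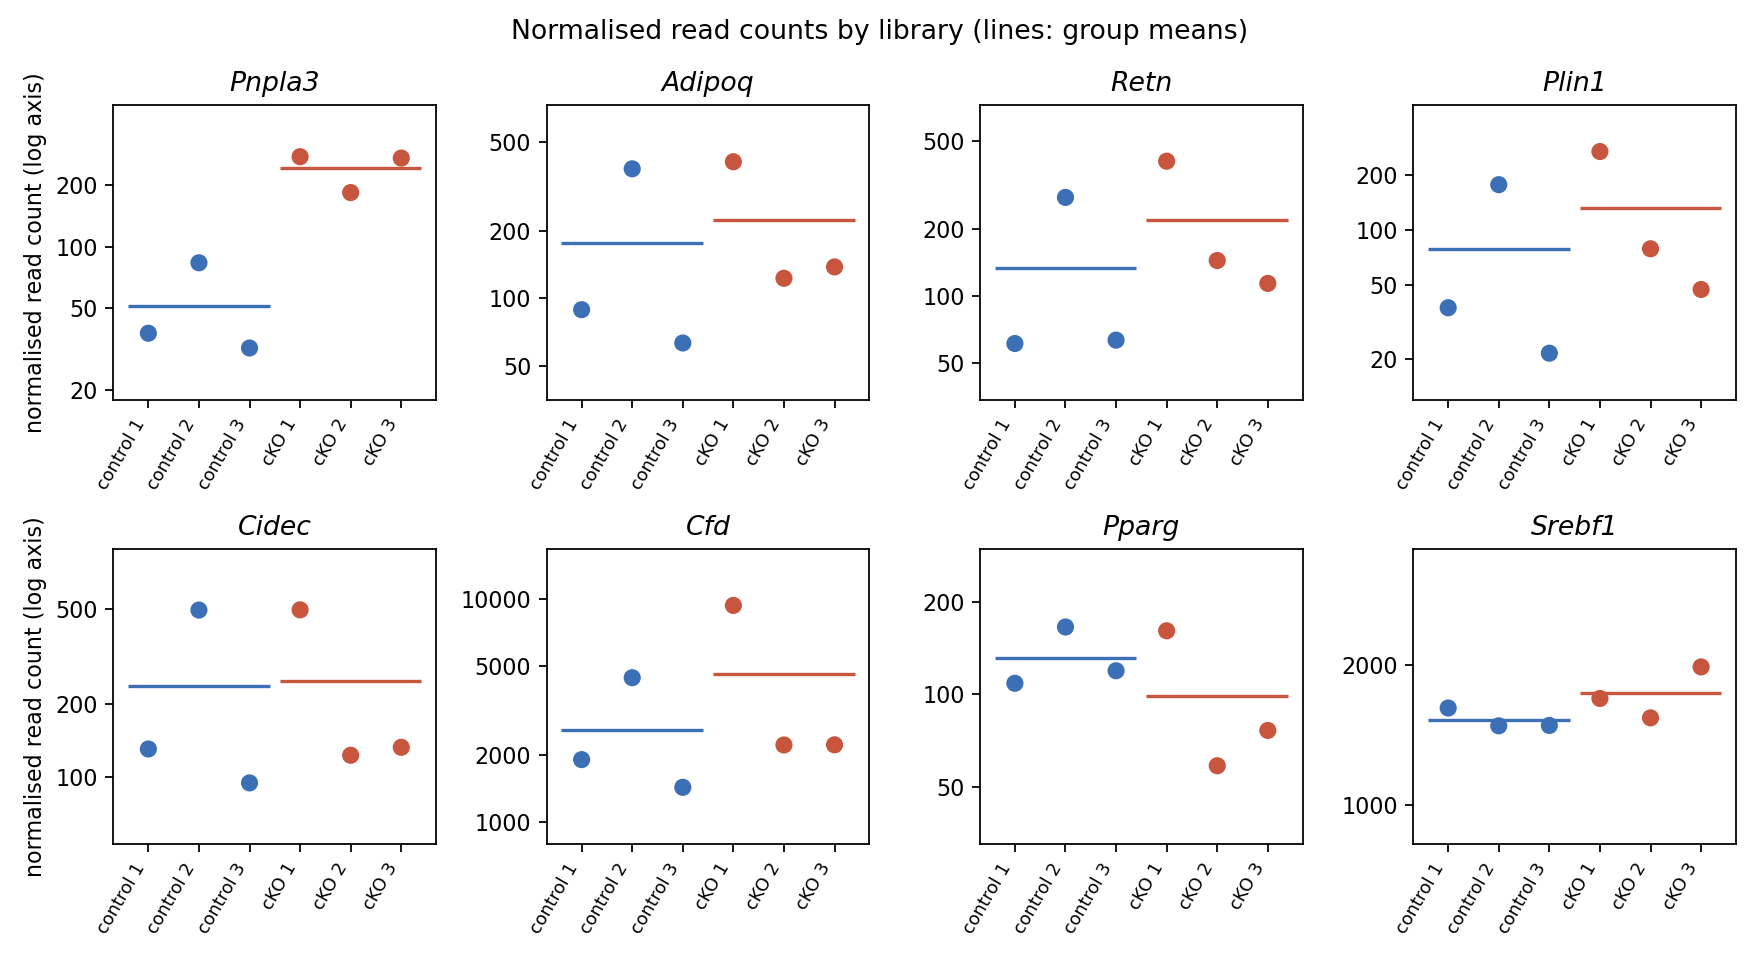
Normalised read counts on log axes for 8 genes in each of the 6 libraries. Points are libraries, blue for control and red for cKO, and lines are group means. Pnpla3 separates the groups, at 32.0 to 83.6 against 184.3 to 276.0, whereas Adipoq, Retn, Plin1, Cidec and Cfd are highest in control replicate 2 and cKO replicate 1.

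Log2 fold changes of the adipocyte hormones carried wide errors, at 0.56 ± 0.75 for Adipoq, 0.87 ± 0.70 for Retn, 0.64 ± 0.70 for Cfd and -0.43 ± 1.07 for Lep (SE, n = 3 per group). A single library moved them, with Adipoq at 1.33 without control replicate 2 and at 0.02 without cKO replicate 1, and Cfd at 1.12 and -0.05 in the same fits. Retn went from 1.58 to 0.32 and Lep from 0.24 to -1.25. The remaining adipocyte genes of this group were steadier. Fabp4, a fatty acid carrier of adipocytes that macrophages and endothelium also express, was at 4188.2, 4437.9 and 6232.0 in control libraries, against 6048.2, 5525.1 and 5207.5 in cKO libraries, with a log2 fold change of 0.20 ± 0.19. Pparg, the nuclear receptor that drives adipocyte differentiation, was at 108.5, 165.4 and 119.2 in control libraries, against 160.8, 58.5 and 76.2 in cKO libraries, where the same 2 libraries were again the highest. Its log2 fold change was -0.52 ± 0.40.

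The order of libraries seen in Adipoq was common in the set. In 13 of the 34 genes (38.2%) the highest 2 of the 6 libraries were control replicate 2 and cKO replicate 1, a pattern that 5.11% of all tested genes showed. These 13 are Adipoq, Lep, Retn, Cfd, Pparg, Plin1, Plin4, Cidea, Cidec, Pnpla2, Lpl, Cd36 and Me1. The pattern was noticed in these values and is a description. Together Adipoq, Lep, Retn, Cfd, Plin1 and Cidec, a subset picked after their values were seen, made up 0.0397% of control replicate 2 and 0.0712% of cKO replicate 1, against 0.012 to 0.0172% in the other 4 libraries. Pnpla3 was also highest in control replicate 2 among controls, at 2.39 times the mean of the other 2, and in cKO replicate 1 among cKO libraries, at 1.21 times the mean of the other 2. Control replicate 2 lay below all 3 cKO libraries for Pnpla3.

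**Figure D2:**
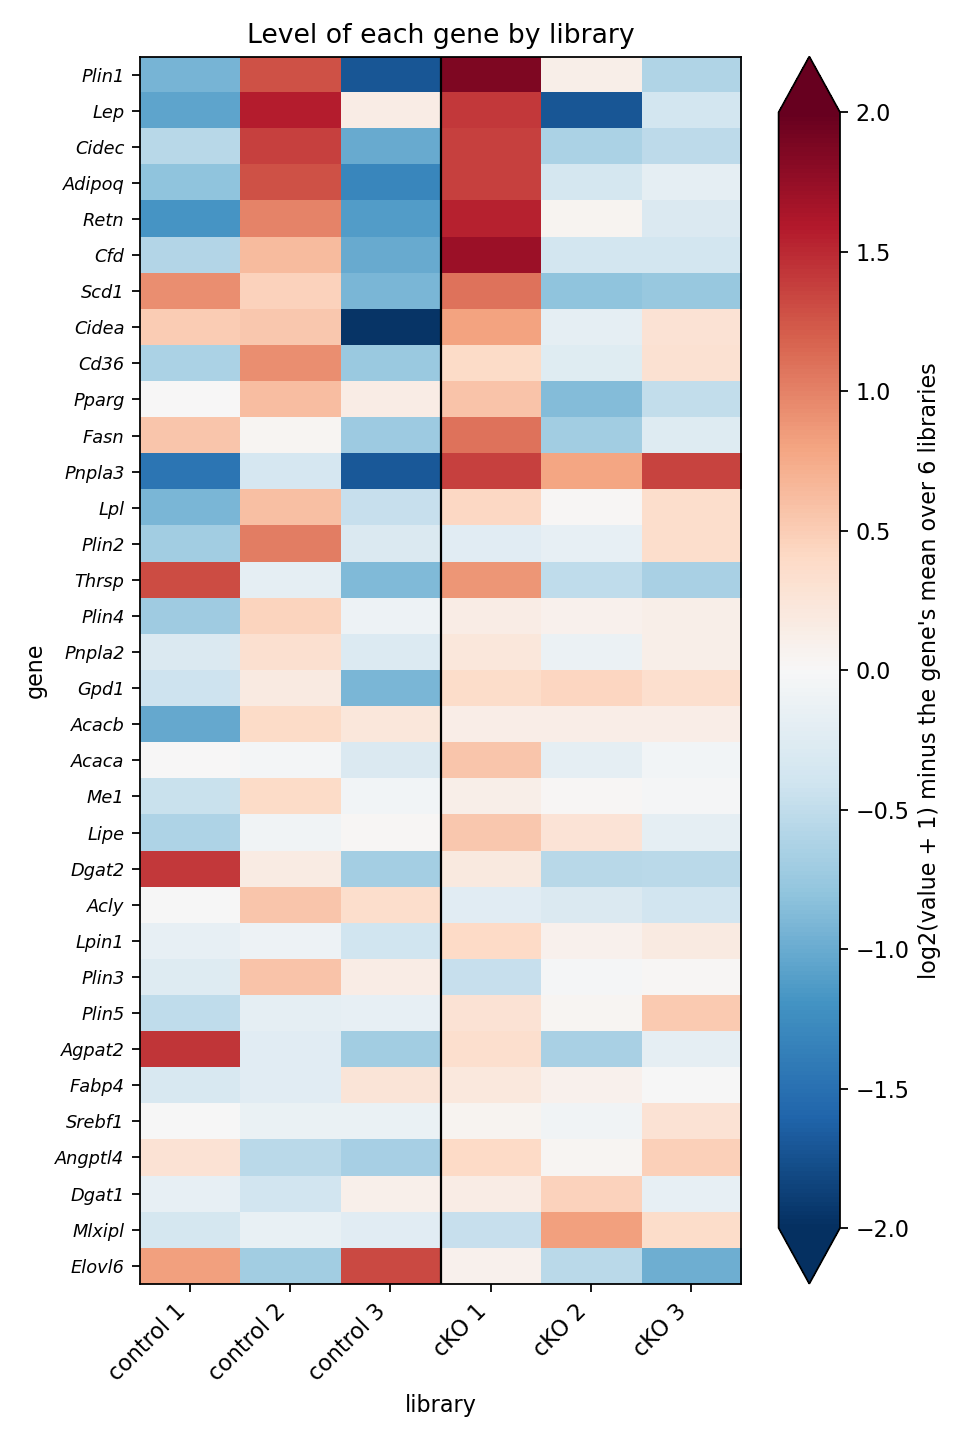
Level of the 34 genes in the 6 libraries, as log2(value + 1) minus the mean of that gene over all libraries (red above, blue below its mean, colours saturating at 2). Rows run from genes high in control replicate 2 and cKO replicate 1 at the top to those low there, and the black line parts controls from cKO. Adipocyte genes at the top share 2 red columns, and Pnpla3 is blue in the 3 controls and red in the 3 cKO libraries.

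Lipid droplet coat genes split between that adipocyte order and flatter patterns. Plin1, the perilipin of mature adipocytes, was at 37.8, 176.2 and 21.4 in control libraries, against 266.7, 79.0 and 47.5 in cKO libraries, and Cidec, which fuses droplets in white fat, at 130.5, 494.3 and 94.3 in control libraries, against 495.3, 122.9 and 132.6 in cKO libraries. For Cidec the highest values of the groups were nearly equal, and the log2 fold change was 0.14 ± 0.78. For Plin1 it was 0.92 ± 0.89, and 1.78 and 0.22 without control replicate 2 and without cKO replicate 1. Cidea, a relative of Cidec that is typical of brown fat, had 3 to 26 reads a library and a log2 fold change of 0.61 ± 0.84. Plin2, the coat protein of droplets in most cell types, was at 971.7, 3194.1 and 1278.4 in control libraries, against 1334.3, 1403.2 and 2013.2 in cKO libraries, with control replicate 2 above the other 5 libraries. Plin3 and Plin4 overlapped between the groups, with log2 fold changes of -0.31 ± 0.23 and 0.25 ± 0.26. Plin5, the perilipin of oxidative tissues such as muscle, was at 96.3, 122.2 and 123.7 in control libraries, against 168.2, 142.4 and 197.8 in cKO libraries. The groups did not overlap for Plin5, whose log2 fold change was 0.56 ± 0.26.

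Plin5 was one of 5 members whose groups were fully apart. Pnpla3, Plin5, Lpin1 and Gpd1 were above all controls in all 3 cKO libraries and Acly was below, where 9.04% of all tested genes lay above and 10.5% below. The shares among the members, at 4 and 1 of 34, are a description, since the choice of genes used this contrast. In the 33 genes other than Pnpla3 the log2 fold change ran from -0.96 to 0.92 with a median of 0.215, and the median of all tested genes was 0.002. The cKO mean on the log2 scale was higher in 24 of the 34 genes and lower in 10, where 50.3% of all tested genes had a higher cKO mean.

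**Figure D3:**
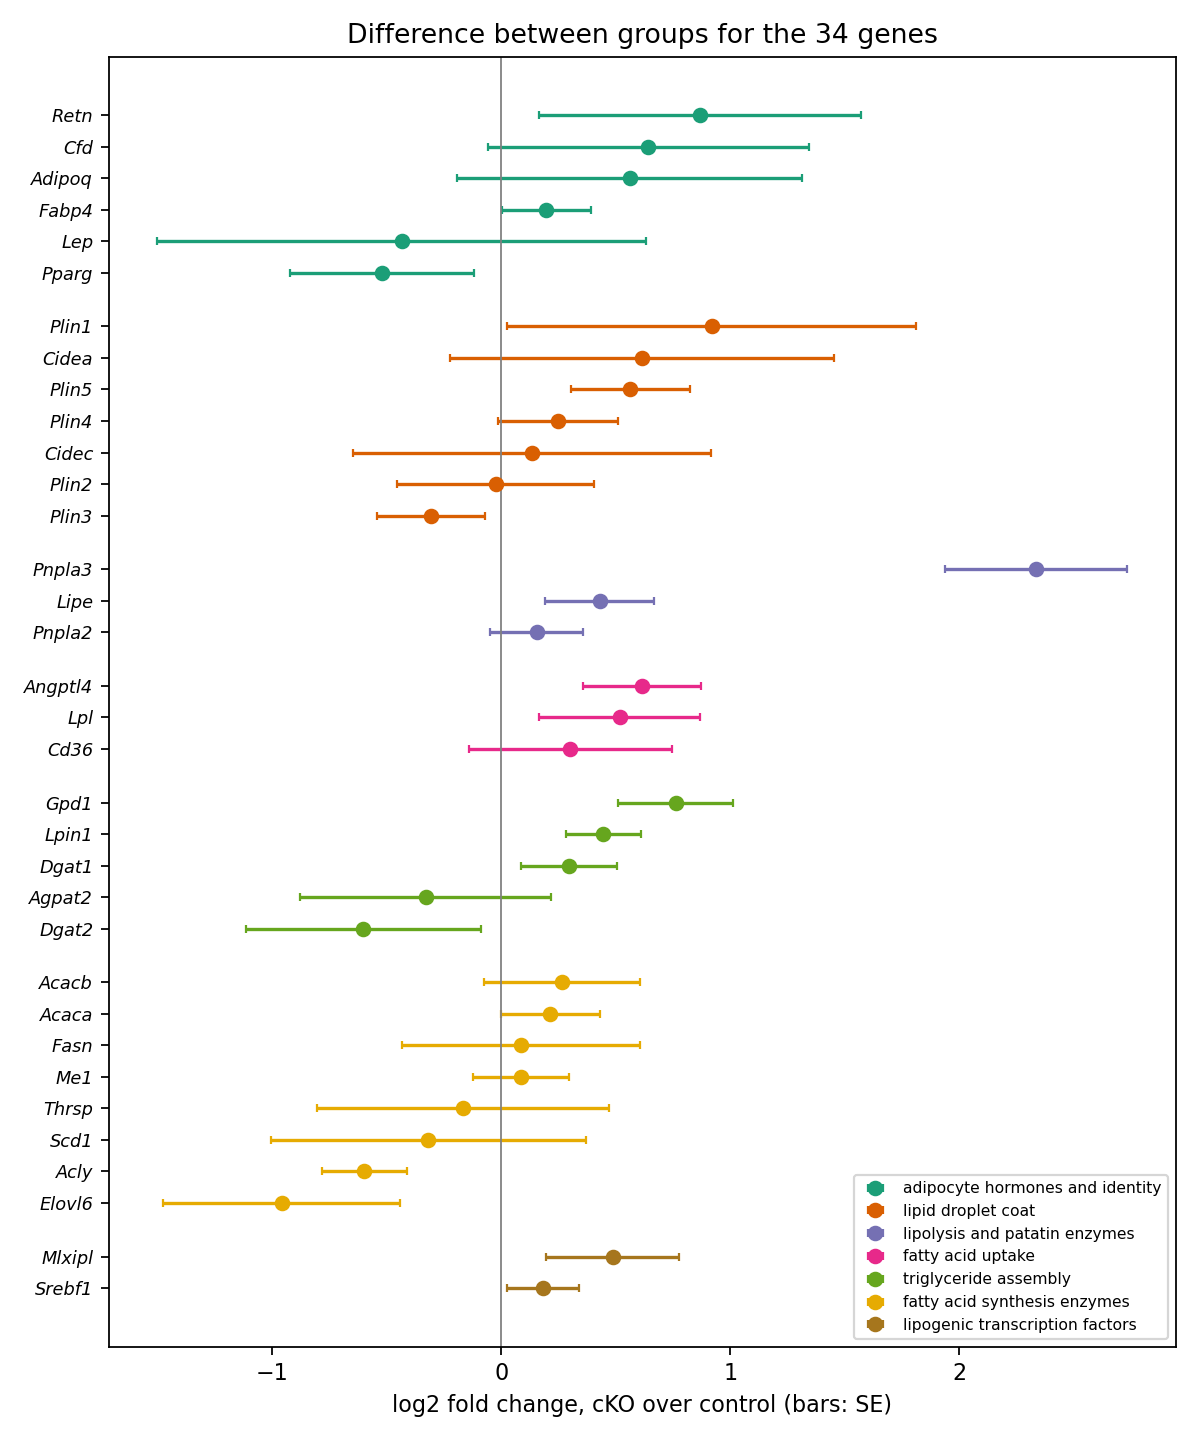
Log2 fold change, cKO over control, of the 34 genes on the log2(value + 1) scale, grouped by role. Points are estimates from limma and bars are SE, with 3 libraries per group. Pnpla3 lies at 2.34 and the other 33 between -0.96 and 0.92.

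Genes of fatty acid uptake were abundant. Lpl, the lipase on capillary walls that frees fatty acids from lipoproteins, was at 3750.4, 10654.4 and 5109.2 in control libraries, against 9345.9, 7151.6 and 8978.6 in cKO libraries. Cd36, a fatty acid transporter, was at 2495.8, 7364.2 and 2330.0 in control libraries, against 5077.2, 3292.0 and 4802.0 in cKO libraries. In both genes control replicate 2 was the highest library and the groups overlapped. Their log2 fold changes were 0.52 ± 0.35 and 0.30 ± 0.44. Angptl4, a fasting-induced inhibitor of LPL, was at 1836.2, 1030.8 and 949.3 in control libraries, against 1990.4, 1546.6 and 2099.3 in cKO libraries. Its log2 fold change was 0.61 ± 0.26, and without control replicate 1, the library that held liver transcripts, it was 0.91 and passed the threshold of limma. That fit called 117 genes higher and 347 lower over all genes, beside 45 and 145 with all libraries. Liver also expresses Angptl4, and its part in the Angptl4 values was not tested.

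Triglyceride assembly genes differed in direction. Gpd1, which supplies the glycerol backbone, was at 1569.2, 2353.8 and 1109.4 in control libraries, against 2687.3, 2822.0 and 2635.2 in cKO libraries. The groups were apart, with a log2 fold change of 0.76 ± 0.25, and 1.04 with a call by limma when control replicate 2 was left out. That fit called 82 genes higher and 90 lower over all genes, beside 45 and 145 with all libraries. Antisense exons of Gm16537 cover 13.0% of Gpd1. Lpin1, the phosphatidate phosphatase of muscle and fat, was at 851.0, 887.0 and 720.6 in control libraries, against 1261.9, 1014.1 and 1076.2 in cKO libraries, a log2 fold change of 0.45 ± 0.16. Skeletal muscle expresses both genes, and its markers took 1.81 times the share of reads in the cKO mean. Their part in the 2 differences was not tested.

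Among the acyltransferases that complete triglyceride, Dgat1 was at 529.2, 457.5 and 642.3 in control libraries, against 662.5, 817.2 and 532.6 in cKO libraries. Dgat2 was at 977.8, 408.0 and 227.7 in control libraries, against 420.0, 246.7 and 249.7 in cKO libraries, and Agpat2, which acylates lysophosphatidate, at 801.1, 253.4 and 184.2 in control libraries, against 375.4, 190.1 and 263.0 in cKO libraries. Both were highest in control replicate 1. Their log2 fold changes of -0.60 ± 0.51 and -0.33 ± 0.55 became -0.04 and 0.30 without that library. Control replicate 1 was the highest library in 3 of the 34 genes, Dgat2, Agpat2 and Thrsp, and in 21.3% of all tested genes.

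Of the 8 genes of fatty acid synthesis, 4 had a higher and 4 a lower mean in the cKO, with a median log2 fold change of -0.04. Fasn, the fatty acid synthase, was at 1559.4, 1093.8 and 645.9 in control libraries, against 2252.4, 658.2 and 891.7 in cKO libraries, and Scd1, which desaturates the products, at 5033.1, 3632.7 and 1406.5 in control libraries, against 5605.0, 1511.4 and 1567.9 in cKO libraries. In both genes cKO replicate 1 was the highest library and control replicate 3 the lowest. Their log2 fold changes were 0.09 ± 0.52 and -0.32 ± 0.69. Thrsp, a lipogenic nuclear protein gene of liver and fat, was at 632.8, 226.5 and 138.8 in control libraries, against 474.8, 180.4 and 163.5 in cKO libraries, and its log2 fold change of -0.17 ± 0.64 was 0.44 without control replicate 1.

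Acly, the enzyme that makes cytosolic acetyl-CoA from citrate, was at 618.2, 917.6 and 798.9 in control libraries, against 532.4, 510.0 and 480.6 in cKO libraries. All cKO libraries lay below all controls, with a log2 fold change of -0.60 ± 0.18, and -0.75 with a call as lower when control replicate 1 was left out. That fit called 347 genes lower over all genes, beside 145 with all libraries. Elovl6, which lengthens palmitate, was at 373.1, 131.2 and 528.4 in control libraries, against 223.9, 145.3 and 107.2 in cKO libraries. It had the most negative log2 fold change of the set, -0.96 ± 0.52, which was -0.54 without control replicate 3 and -1.54 without control replicate 2. The acetyl-CoA carboxylase genes Acaca and Acacb had log2 fold changes of 0.21 ± 0.22 and 0.27 ± 0.34. Acacb, the form linked to fatty acid oxidation in muscle, was at 610.8, 1621.3 and 1451.9 in control libraries, against 1355.7, 1356.4 and 1357.9 in cKO libraries. Me1, the malic enzyme that supplies NADPH, had a log2 fold change of 0.09 ± 0.21. Transcripts with at least 95% identity over 100 bases or more exist for Acaca (129 other genes, up to 6118 bases), Me1 (3, up to 1716), Elovl6 (5, up to 805) and Scd1 (2, up to 623, the longest with Scd2), so part of their reads is uncertain.

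The transcription factors known to induce Pnpla3 were expressed in all libraries. Srebf1, which encodes SREBP-1, was at 1618.0, 1481.1 and 1483.9 in control libraries, against 1696.7, 1540.7 and 1984.4 in cKO libraries, a log2 fold change of 0.18 ± 0.16. The counts do not part its SREBP-1a and SREBP-1c forms. Mlxipl, which encodes ChREBP, was at 1715.5, 1986.2 and 1880.7 in control libraries, against 1601.0, 3886.9 and 2828.6 in cKO libraries. The cKO values of Mlxipl spanned 2.43-fold and included the lowest of all 6 libraries, and the log2 fold change was 0.49 ± 0.29. Pnpla3 was at 276.0 in cKO replicate 1, which had the lowest Mlxipl, and at 184.3 and 271.8 in cKO replicates 2 and 3. Whether either factor took part in the Pnpla3 difference was not tested.

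Set against each other member within the same library, Pnpla3 was higher in the cKO animals in 32 of 33 ratios without overlap of the groups. These ratios share the Pnpla3 values that chose the set, and are a description. Pnpla3 alone was already apart, at up to 83.6 in controls and from 184.3 in the cKO. The count thus largely repeats that separation and is not a result about the other members. The share of all tested genes with such a ratio was not computed. The mean log2 ratio moved by 1.42 for Plin1, the smallest shift and the one ratio with overlap, and by 3.30 for Elovl6, the largest. For Adipoq the log2 ratio was -1.45 ± 0.64 (SD, n = 3) for controls and 0.33 ± 0.79 for the cKO. For Pnpla2 it was -5.40 ± 0.39 and -3.22 ± 0.165.

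Pnpla3 was also set against markers of other cells in the same libraries. Per 100000 reads of the skeletal muscle markers it had 6.68, 9.36 and 5.30 reads in control replicates 1 to 3 and 27.5, 12.9 and 19.0 in cKO replicates 1 to 3. The groups stayed apart, and the ratio of the means was 2.78, smaller than the 4.77 of the normalised counts. The same ratio was 2.96 per macrophage marker read, 3.92 per blood endothelial marker read and 3.89 per read of the 6 adipocyte genes named above, without overlap of the groups in any of them. Per 100000 reads of the 6 adipocyte genes, controls had 1700, 1440 and 1900 and cKO replicates 1 to 3 had 2520, 6860 and 10200. Cases of non-overlap here rest on the Pnpla3 values that chose the set, and are a description. Without control replicate 2 and cKO replicate 1 together, the libraries highest in Adipoq, the log2 fold change of Pnpla3 was 2.65 with 2 libraries per group and no call.

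Levels per kilobase of gene length placed Cfd first, at 2810 ± 1754 (SD, n = 3) normalised reads for controls and 4991 ± 4480 in cKO animals. Cd36 and Fabp4 followed at 1177 and 1175 on average over the 6 libraries, a difference far below their spread. Lep was lowest at 3.73, below Cidea at 13.5 and Plin1 at 22.5. The highest and lowest control library differed by more than 2-fold in 20 of the 34 genes, and the highest and lowest cKO library in 13.

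Other genes of lipid metabolism, 124 in 9 lists taken from general knowledge, show what surrounds the set. Of 111 tested, limma called 3 higher and 1 lower in the cKO, against 0.276% and 0.889% of all genes. The lists hold 14 genes higher and 17 lower at an unadjusted p under 0.05, beside 6.11% and 7.6% of all tested genes. Among the 111, edgeR and limma-voom each called 2 higher and 1 lower, and DESeq2 called 6 and 6, beside 1.8% and 3.72% of all genes by DESeq2. The median log2 fold change was -0.10. Fitm1, which packages triglyceride into droplets and is typical of skeletal muscle, rose from 1833.8, 2277.4 and 2242.8 in controls to 4069.9, 4180.4 and 4406.4 in cKO animals (log2 fold change 1.00 ± 0.16, limma adjusted p = 0.0231). G0s2, an inhibitor of PNPLA2, rose from 484.0, 277.7 and 476.8 to 905.0, 903.0 and 889.5 (1.17 ± 0.23, limma adjusted p = 0.0491). Pdk4, the kinase that shuts pyruvate oxidation when fat is burned, rose from 1804.5, 2041.9 and 2037.3 to 4442.5, 3252.0 and 5018.5 (1.09 ± 0.19, limma adjusted p = 0.0349).

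Skeletal muscle markers moved in the same direction as these 3 genes. Per read of the skeletal muscle markers the ratio of cKO to control means was 1.06 for Fitm1, 1.10 for G0s2 and 1.15 for Pdk4. The groups overlapped in each. For Pnpla3 the ratio was 2.78 without overlap, but its values chose the set, so it cannot be compared with these 3 genes on that point. Per macrophage marker read the ratios of Fitm1, G0s2 and Pdk4 were 1.10, 1.13 and 1.18, also with overlap. Per read of Adipoq, Lep, Retn, Cfd, Plin1 and Cidec together they were 1.41, 1.37 and 1.48, again with overlap. Per blood endothelial marker read they were 1.69, 1.88 and 1.86, with the groups apart. Overlap was thus not particular to the skeletal muscle markers. Differences between these ratios were not tested. All 3 lost their call when any cKO library was left out or libraries were scaled to their totals. G0s2 was also not called by edgeR, by limma-voom, after TMM scaling, with a pseudocount of 0.5 or without the robust option, and Pdk4 not without control replicate 2.

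**Figure D4:**
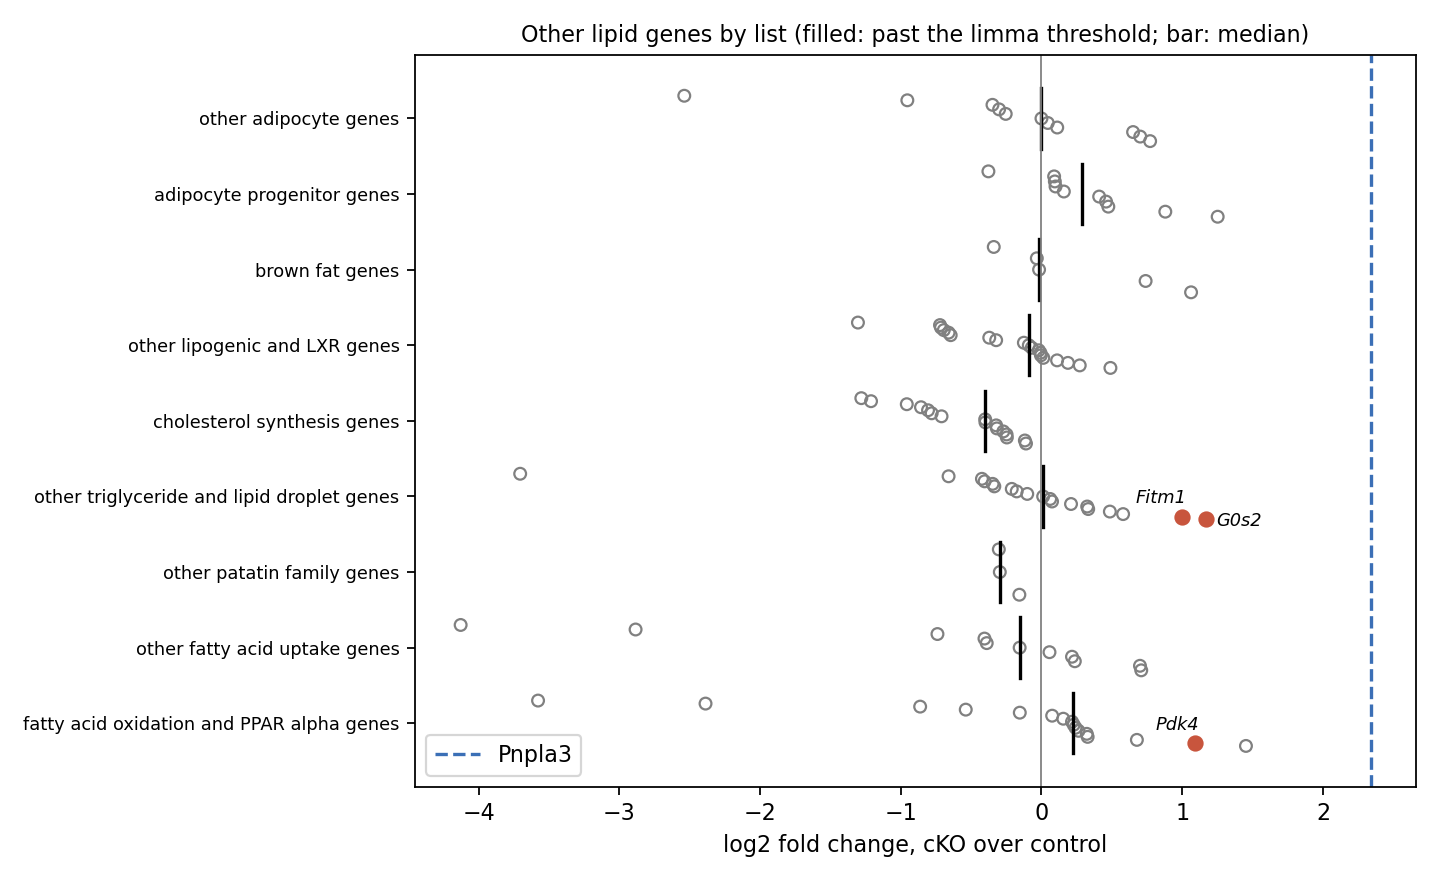
Log2 fold change, cKO over control, of the tested lipid genes outside the set that were not called lower, by list. Each circle is a gene, filled circles passed the limma threshold, black bars are medians of the genes drawn and the dashed line marks Pnpla3 at 2.34. Fitm1, G0s2 and Pdk4 are the called increases.

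All 17 tested genes of the cholesterol list had a lower cKO mean, with a median difference of -0.40 on the log2 scale. At an unadjusted p under 0.05, 0 were higher and 5 lower, where 6.11% and 7.6% of all tested genes were. In control replicate 1, which held liver transcripts, the list took 0.0547% of reads, against 0.0398 and 0.0428% in the other controls and 0.0274 to 0.0313% in cKO libraries.

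The other lipogenic and LXR genes, which include further targets of SREBP-1 and the liver X receptors, had 0 of 19 called by limma, edgeR or limma-voom. At an unadjusted p under 0.05, 1 was higher and 5 lower, beside the same 6.11% and 7.6% of all genes. DESeq2 called 0 higher and 4 lower, beside 1.8% and 3.72% of all genes, namely Fads1, Fads2, Mid1ip1 and Scd2. The most abundant of the list were Txnip, at 6069.5 to 9098.7 in controls and 7367.1 to 9936.9 in cKO animals, and Scd2, at 2842.4 to 4112.6 and 1837.1 to 2278.3. Scd2 lay lower in all cKO libraries, with a log2 fold change of -0.65 ± 0.19.

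Lists of adipocyte identity gave no call by limma. Over all tested genes, limma called 0.276% higher and 0.889% lower, edgeR 0.19% and 0.736%, and limma-voom 0.116% and 0.503%. DESeq2 called 1.8% higher and 3.72% lower, and at an unadjusted p under 0.05 the shares were 6.11% and 7.6%. Of 11 tested adipocyte genes outside the set, 0 were called and 1 was higher at an unadjusted p under 0.05. EdgeR, DESeq2 and limma-voom called 0 of them. The most abundant were Car3, also a muscle gene, at 16760.0 to 46201.8 in controls and 35031.4 to 65963.3 in cKO animals, and the insulin-responsive glucose transporter gene Slc2a4, at 3302.4 to 3876.0 and 3055.1 to 4480.6. Of 10 adipocyte progenitor genes 0 were called, 3 were higher at an unadjusted p under 0.05, and DESeq2 called 1, Pi16, with 0 by edgeR and limma-voom. The stem cell antigens Cd34 and Ly6a were at 5121.8 to 6718.6 and 2714.1 to 3770.3 in controls and 5394.2 to 7073.1 and 3134.7 to 3854.7 in cKO animals. Of 5 tested brown fat genes 0 were called, 1 was higher at an unadjusted p under 0.05, and DESeq2 alone called 1, Cox8b, which muscle expresses too. It was at 3148.2 to 3910.2 in controls and 5010.3 to 6893.6 in cKO animals, and Dio2 at 1009.5 to 1854.1 and 1154.6 to 1596.3. The thermogenic gene Ucp1 had no read in 4 of the 6 libraries and was not tested.

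Of the other patatin genes, Pnpla6, Pnpla7 and Pnpla8 were tested, and 0 were called by limma, by the other 3 tools or at an unadjusted p under 0.05. Their log2 fold changes were -0.30 ± 0.21, -0.16 ± 0.17 and -0.30 ± 0.24. Pnpla5, which lies next to Pnpla3 in the mouse genome, was at 1.2 to 6.2 in all libraries and was not tested. Among 11 other fatty acid uptake genes 0 were called, 2 were higher and 2 lower at an unadjusted p under 0.05, and edgeR, DESeq2 and limma-voom called 0. Of all tested genes, 6.11% were higher and 7.6% lower at that unadjusted cut. Limma called 0.276% of all tested genes higher and 0.889% lower, and DESeq2 1.8% and 3.72%. The muscle fatty acid carrier gene Fabp3 was at 2321.4 to 3707.8 in controls and 4075.1 to 5805.7 in cKO animals, and the very low density lipoprotein receptor gene Vldlr at 1250.8 to 2740.2 and 1092.8 to 1457.9.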

How the data were processed

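Each deposited value is a normalised count (signal), reads of a gene over 1 scaling factor for that library, as applied by the authors. The values themselves show it: in every library 100% are whole multiples of a fixed step, within 0.01 reads. The submitters' processing notes name HISAT2, SAMtools, featureCounts and GRCm39, without versions. The sources used here do not give the strand setting. Of 25988 genes found in GENCODE vM21 (GRCm38), 25205 had identical coordinates in the table, so coordinates are read as GRCm38. The table's log2 fold changes and p-values, made by the authors, were not used.

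Group differences come from limma 3.58.1 (R 4.3.3) on log2(value + 1) of all 6 libraries, with trend and robust empirical Bayes, after filterByExpr of edgeR 4.0.16 on recovered reads. P-values were adjusted over all genes by the Benjamini-Hochberg method, threshold 0.05. The added 1 understates changes of low genes. Alternatives were edgeR, DESeq2 1.42.0 and limma-voom on recovered reads, other scalings, filters and pseudocounts, a replicate block and leaving out libraries. The method of the main limma fit was tested on simulated counts, and edgeR, DESeq2 and limma-voom were not. Near-identical transcripts were sought with blastn 2.17.0. Floors of 3 reads cover counting error only. Each library is 1 animal, per the labels.

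Members and lists were chosen with earlier results of these data known. All 34 members are named, with Tcf21, and from each pathway list the called genes or, with none called, the 2 of highest mean. Fads1, Fads2, Mid1ip1 and Pi16 (some of the genes that DESeq2 alone called), Pnpla5, Pnpla8, Ucp1, Tnnc2, the smooth muscle genes and Des were named after their values were seen. For a symbol found more than once, its row of highest mean was taken. Of the marker lists not described with the results, steroidogenic, neuron and intestinal markers took 0.00406 ± 0.00274, 0.0195 ± 0.025 and 0.013 ± 0.00837% of control reads and 0.00173 ± 9.92e-05, 0.00353 ± 0.000645 and 0.00325 ± 0.000983% of cKO reads (SD, n = 3). The pathway gene called lower is counted but not reported here.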

Additional observations from a re-analysis of the deposited data

How the results depend on the processing

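Limma called 45 genes higher and 145 lower. Without the low-read filter there were 82 higher, with scaling to library totals 12, with DESeq2 280 higher and 578 lower, and with limma-voom 19 and 82. Leaving out 1 library gave 1 to 117 higher and 42 to 347 lower. The number of members called higher, 1 in the reported fit, was 0 with limma-voom and 0 to 2 without 1 library, and the number called lower was 0 to 1. Among the 124 pathway genes, 3 higher and 1 lower became 0 higher with library totals, 6 and 6 with DESeq2, and 0 to 5 and 0 to 3 without 1 library. Leaving out both control replicate 2 and cKO replicate 1, chosen after seeing the data, gave 6 higher and 41 lower genes, with 0 members and 0 pathway genes called in either direction. The cause of these shifts was not tested. Pnpla3 was called in 13 of the 18 alternatives. The sign of its difference was the same in all 18, from 2.07 to 2.75. These fits reuse the libraries whose Pnpla3 values chose the set, so the shared sign is a description and not support. With the replicate number as a block, 34 genes were higher and 149 lower, with 1 member and the same Pnpla3 value of 2.34. Same-numbered libraries did not deviate together (r across genes 0.008, -0.176 and 0.044), and pairs of different number ran from -0.121 to 0.099. With 3 libraries per group, these values cannot tell whether same-numbered samples shared more than a number. Lep and Cidea, with as few as 2 and 3 reads in a library, are limited by depth.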
